A study of Homo with 2 samples.

Results

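The 33 genes described here are 16 enzymes of glycolysis, 2 glucose transporters and 15 genes known to be induced when cells lack oxygen. They were listed by gene symbol, with earlier results of these data known. All 33 have a row in both count tables, among 25556 genes that the tables share. Day 4 human blastoids, embryo-like aggregates modelled on the blastocyst, were profiled by droplet-based single-cell RNA sequencing of 3′ ends. All cells descend from 1 established line of human embryonic stem cells, KhES1. Dissociated cells were aggregated in microwells for 24 h and the aggregates then spent 4 days in a 10% hydrogel of PNIPAAm and PEG. High-glucose DMEM with 10% fetal bovine serum and 10 µM Y27632 was the medium in both steps. The study has 1 group of 2 libraries in these files, and neither oxygen nor glucose was varied between them. The labels do not say whether the libraries came from separate cultures, so the spread between them may be technical.

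Glycolysis splits glucose into pyruvate in the cytosol and yields ATP without oxygen, and lactate dehydrogenase then turns pyruvate into lactate. When oxygen is low, the hypoxia-inducible factors HIF1A and EPAS1 escape the prolyl hydroxylases that mark them for destruction and, with ARNT, raise the genes of glycolysis, glucose uptake, blood vessel growth and mitophagy. Pluripotent cells of the primed state are known for high glycolytic flux, and the placenta develops in low oxygen.

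Library 1 held 38665475 unique molecular identifiers (UMIs, each a counted RNA molecule) over 1988 barcodes, and library 2 held 45208758 over 2601. With at least 1000 detected genes, at most 20% mitochondrial UMIs and doublets removed, 937 and 1517 cells remained, at medians of 35059 and 25012 UMIs. No barcode was shared between the kept cells of the libraries. The label calls the cells embryonic stem cells, yet 709 cells of library 1 (75.7%) and 912 of library 2 (60.1%) carried markers common to amnion and to trophectoderm, the layer that builds the placenta. These trophectoderm/amnion-like cells had 32.3 and 35.2 CPM (the UMIs of a gene in every 1000000 UMIs of the cells summed) of POU5F1, against 436 and 644 CPM in a class of 62 and 100 cells. That smaller class (6.62% and 6.59% of cells) carried markers of pluripotent epiblast and of primitive streak together and is called epiblast/streak-like here. A cluster of 29 and 66 cells led by HOPX, S100P and CYP19A1 scored highest on a list of syncytiotrophoblast markers. The 5 of those markers with counts all reached 10 CPM there. None was among its 10 leading genes, but the trophectoderm/amnion-like clusters had none of their own markers among theirs either. It is called the HOPX-high cluster here, without a cell type name. The libraries differed most in a cluster of low depth, which held 1.6% of cells in library 1 and 20.6% in library 2 and was left out of the classes.

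Across all kept cells several enzymes of the later steps of glycolysis, though not ENO2, were more abundant than those of its first steps, and most hypoxia genes were low. Because 1 tag is counted per RNA molecule whatever its length, levels of different genes were compared directly. GAPDH, which oxidises glyceraldehyde 3-phosphate, was the highest of the 33 genes, with 1262 CPM in library 1 and 1275 CPM in library 2. The enolase ENO1 averaged 337 ± 9.24 CPM, the triosephosphate isomerase TPI1 259 ± 9.41 CPM and the pyruvate kinase PKM 219.7 ± 10.2 CPM (SD, n = 2 libraries each). Only the glucose transporter SLC2A3 ranked among these enzymes, and its level and that of TPI1 did not differ beyond their spread.

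Of the glucose transporters, the high-affinity SLC2A3 (GLUT3) was the higher, at 265 ± 7.06 CPM, against 89.2 ± 1.85 CPM of SLC2A1 (GLUT1) (SD, n = 2 each). SLC2A1 made up 25.1% of the UMIs of the pair in library 1 and 25.3% in library 2. Of the hexokinases, which trap glucose in the cell, HK1 had 64.6 ± 0.257 CPM and HK2 19.9 ± 0.726 CPM. The phosphofructokinases, which commit sugar to glycolysis, were led by the platelet form PFKP (68.5 ± 2.19 CPM), followed by the liver form PFKL (46.3 ± 0.689 CPM) and the muscle form PFKM (14.5 ± 0.362 CPM).

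Further down the pathway, PGK1, which makes the first ATP, averaged 142.7 ± 4.68 CPM and LDHA, which makes lactate, 105 ± 13 CPM. The mutase PGAM1 differed more between the libraries than its neighbours, with 111 CPM in library 1 and 153 CPM in library 2. The isomerase GPI had 51.6 ± 1.28 CPM and the neuronal enolase ENO2 7.12 ± 0.382 CPM. LDHA was the minor subunit: it made up 15.9% and 17.7% of the UMIs of LDHA and LDHB together in libraries 1 and 2.

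The aldolases, which split the sugar, were the lowest enzymes, with 5.38 ± 0.471 CPM of ALDOA and 1.15 ± 0.0389 CPM of ALDOC. ALDOA lies at chr16:30064279-30070420 in the RefSeq annotation of GRCh38.p14, and nearly all of it is covered by another protein-coding gene, LOC112694756, at chr16:30053151-30070414. Reads from overlapping genes can be split or dropped in counting, so the level of ALDOA is uncertain here. Overlap was looked up for ALDOA alone, after its low level had been seen, and not for the other members.

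Among the hypoxia genes, BNIP3, a receptor of mitophagy, stood far above the others with 112 CPM in library 1 and 101 CPM in library 2. Next came the prolyl hydroxylase of collagen P4HA1 (50.6 ± 2.2 CPM), the MAX partner MXI1 (36.2 ± 1.09 CPM) and the histone demethylase KDM3A (32.3 ± 3.16 CPM). The mitophagy receptor BNIP3L (30.9 and 29.0 CPM) and the pyruvate dehydrogenase kinase PDK1 (24.1 ± 0.718 CPM) followed. DDIT4, an inhibitor of mTOR, had 23.7 CPM in library 1 and 14.8 CPM in library 2, and INSIG2, a brake on sterol synthesis, 17.5 and 18.6 CPM. Lower still were ADM 7.97, NDRG1 7.94, VEGFA 7.46, P4HA2 7.02, EGLN3 4.46 and ANKRD37 2.73 CPM on average. CA9, the carbonic anhydrase used as a hypoxia stain, had 5 UMIs in library 1 and 3 in library 2 in all kept cells. In such sums over all cells, fewer cells of a type and less RNA per cell cannot be told apart.

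**Figure D1:**
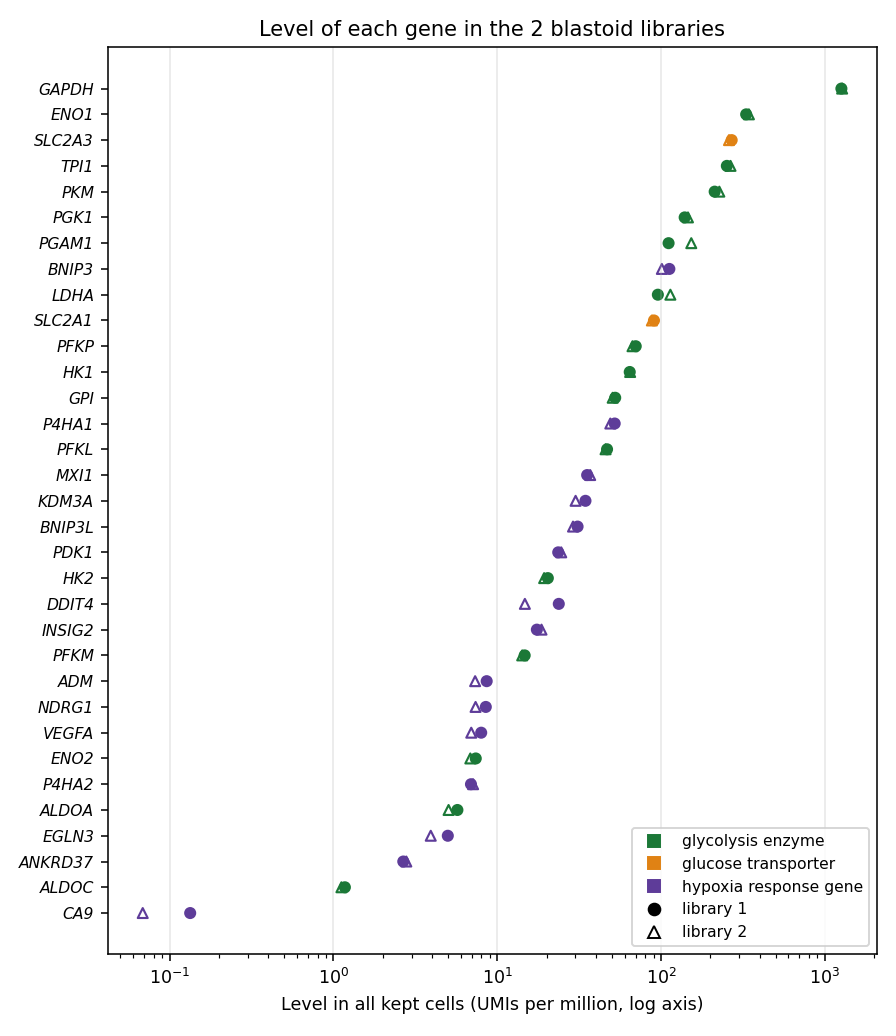
Level of each of the 33 genes in all kept cells of library 1 (filled circles) and library 2 (open triangles), in CPM on a log axis, coloured by role. GAPDH lies at 1262 and 1275 and CA9 at the bottom on 5 and 3 UMIs, and the points of the libraries nearly coincide for most genes, with DDIT4, PGAM1 and CA9 farther apart.

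The enzymes of glycolysis were lower in trophectoderm/amnion-like than in epiblast/streak-like cells, while the hypoxia genes changed in both directions. Summed over the 16 enzymes, trophectoderm/amnion-like cells had 2370.2 CPM in library 1 and 2384 CPM in library 2, and epiblast/streak-like cells had 3951 and 4328 CPM. Cells were clustered on a random part of their UMIs without these genes, and each gene was then tested on the other part, whose CPM are given for single genes; sums over lists and shares between isozymes use all UMIs, also for the HOPX-high cluster. In edgeR's quasi-likelihood test with Benjamini-Hochberg adjustment over 13016 genes, 11 enzymes fell, 1 rose and 3 did not pass at 0.05, of 15 tested. Over all 31 members tested, 15 fell and 5 rose. Of all genes tested, 45.2% passed, with 18% higher and 27.2% lower in trophectoderm/amnion-like cells. The median log2 fold change was -0.93 over the 15 enzymes and -0.11 over all genes. ALDOC and CA9 had too few UMIs to be tested.

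ENO2, the neuronal enolase, fell most among the enzymes, with 4.55 and 4.23 CPM in trophectoderm/amnion-like cells, against 24.5 and 22.5 CPM in epiblast/streak-like cells (log2 fold change -2.45 ± 0.30, SE). Its abundant partner ENO1 had 264 and 271 CPM in trophectoderm/amnion-like cells, against 615 and 713 CPM in epiblast/streak-like cells (-1.35 ± 0.17). LDHA had 77.8 and 86.7 CPM, against 176 and 228 CPM in epiblast/streak-like cells (-1.33 ± 0.15). Within each library these 3 genes differed between the classes by more than the libraries differed.

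TPI1 had 201 and 211 CPM in trophectoderm/amnion-like cells, against 492 and 493 CPM in epiblast/streak-like cells (-1.29 ± 0.15). PGAM1 had 94.6 and 125 CPM, against 198 and 274 CPM in epiblast/streak-like cells (-1.13 ± 0.15), so the class difference held within each library although the libraries differed. GPI had 46.4 and 42.3 CPM, against 85.4 and 88.0 CPM in epiblast/streak-like cells, close to a 2-fold difference. PKM fell too (-0.93 ± 0.15), with 177 and 191 CPM in trophectoderm/amnion-like cells, against 354 and 334 CPM in epiblast/streak-like cells.

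GAPDH, with 1167 and 1131 CPM in trophectoderm/amnion-like cells, against 1620 and 1807 CPM in epiblast/streak-like cells, fell less (-0.61 ± 0.18, adjusted p = 0.0064). PGK1 (-0.45 ± 0.15, adjusted p = 0.014) and HK1 (-0.37 ± 0.14, adjusted p = 0.029) were the smallest falls, and ALDOA (-0.94 ± 0.37, adjusted p = 0.038) rested on 20 and 23 UMIs in epiblast/streak-like cells. The calls of HK1, PGK1 and ALDOA did not hold throughout: of 11 other settings ALDOA did not pass in 7 (adjusted p up to 0.61), HK1 in 6 (up to 0.39) and PGK1 in 3 (up to 0.15).

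PFKP was the 1 enzyme that rose, with 58.9 and 57.7 CPM in trophectoderm/amnion-like cells, against 29.5 and 16.4 CPM in epiblast/streak-like cells (1.36 ± 0.19, adjusted p = 5.3e-07). The other phosphofructokinases had intervals that include 0: PFKL -0.27 to 0.35 and PFKM -0.83 to 0.15 on the log2 scale (95%). PFKP therefore made up 49.7% and 48.9% of phosphofructokinase UMIs in trophectoderm/amnion-like cells, against 31.9% and 25.1% in epiblast/streak-like cells. HK2, the inducible hexokinase, had 20.7 and 18.4 CPM, against 16.2 and 14.5 CPM in epiblast/streak-like cells, and did not pass (interval -0.19 to 0.83).

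Neither glucose transporter passed. SLC2A1 had 84.0 and 87.5 CPM in trophectoderm/amnion-like cells, against 64.3 and 69.4 CPM in epiblast/streak-like cells (interval -0.00 to 0.64), and its adjusted p was 0.11 here and between 0.012 and 0.4 in other settings. SLC2A3 had 273 and 263 CPM, against 330 and 294 CPM in epiblast/streak-like cells (interval -0.55 to 0.05).

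Of the hypoxia genes, 4 rose and 4 fell among 14 tested, and their median log2 fold change (-0.08) was close to that of all genes. ADM, which encodes the vasodilator adrenomedullin, fell most of all members, with 2.47 and 1.15 CPM in trophectoderm/amnion-like cells, against 47.1 and 40.7 CPM in epiblast/streak-like cells (-4.65 ± 0.28, adjusted p = 3e-15). EGLN3, a prolyl hydroxylase that HIF itself induces, had 2.81 and 2.54 CPM, against 14.2 and 11.6 CPM in epiblast/streak-like cells (-2.29 ± 0.37). MXI1 (35.3 and 34.1 CPM, against 61.4 and 62.9 CPM in epiblast/streak-like cells, -0.87 ± 0.17) and PDK1 (23.2 and 23.9 CPM, against 41.2 and 42.2 CPM, -0.86 ± 0.20) fell less. All 4 genes were lower within each library, and 27.2% of all genes tested were called lower.

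NDRG1, a stress gene of differentiating cells, rose most, with 8.62 and 9.18 CPM in trophectoderm/amnion-like cells, against 1.47 and 1.09 CPM in epiblast/streak-like cells (2.76 ± 0.53), on only 3 UMIs per library in the epiblast/streak-like cells. INSIG2 had 20.1 and 20.5 CPM, against 5.40 and 7.64 CPM in epiblast/streak-like cells (1.58 ± 0.31). The collagen hydroxylases P4HA2 (1.23 ± 0.45, adjusted p = 0.025) and P4HA1 (0.40 ± 0.16, adjusted p = 0.041) rose too, but P4HA1 did not pass in 5 of 11 other settings (adjusted p up to 0.2) and P4HA2 not in 2 of 10. BNIP3, the most abundant gene of the list, had 88.7 and 90.2 CPM in trophectoderm/amnion-like cells, against 71.2 and 100.4 CPM in epiblast/streak-like cells, which overlap (interval -0.39 to 0.39). BNIP3L, KDM3A, DDIT4 and ANKRD37 did not pass, nor did VEGFA, the vessel growth factor (4.95 and 3.56 CPM, against 5.89 and 8.36 CPM, adjusted p = 0.072).

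**Figure D2:**
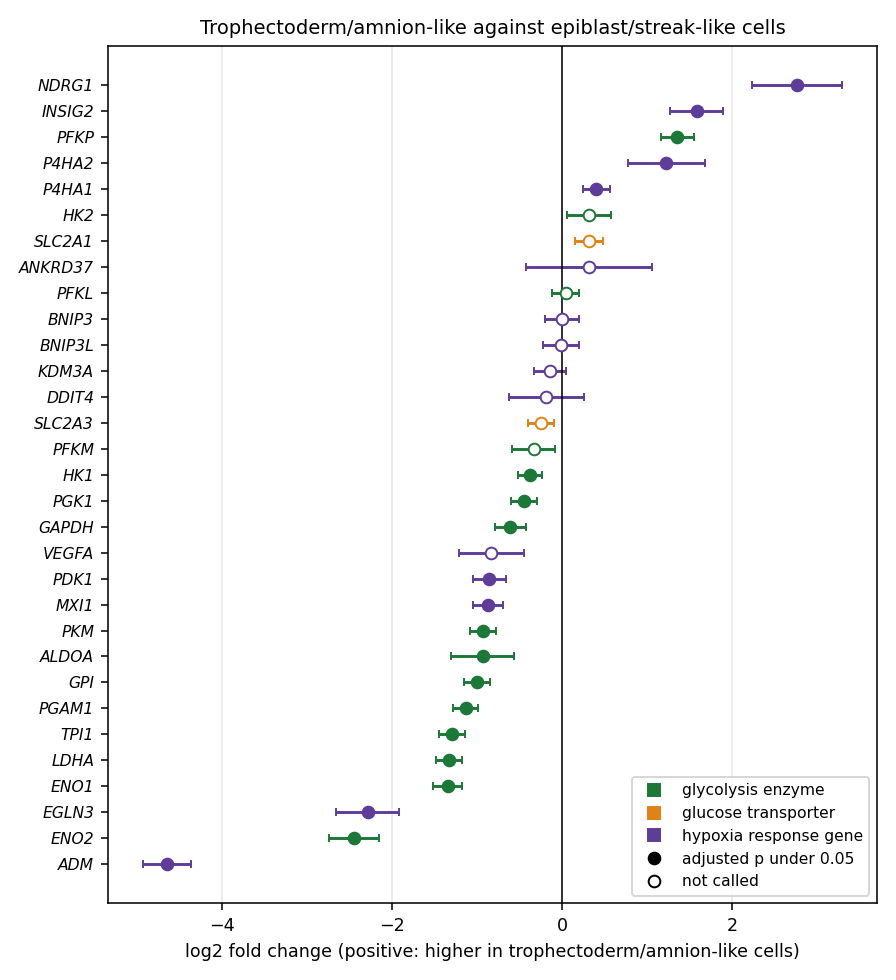
Log2 fold change of each tested gene in trophectoderm/amnion-like against epiblast/streak-like cells, with bars of 1 standard error; filled points passed an adjusted p of 0.05 in edgeR's test over 2 libraries. Enzymes (green) lie mostly left of 0, from ENO2 at -2.45 to HK1 at -0.37, with PFKP at 1.36 on the right, and hypoxia genes (purple) spread from ADM at -4.65 to NDRG1 at 2.76.

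Cell division moved with the same contrast: of 13 cycling genes, 12 were lower and 0 higher in trophectoderm/amnion-like cells, whose summed level was 1120 and 1117 CPM, against 1870 and 1759 CPM in epiblast/streak-like cells. Its part in the fall of the enzymes was not tested. With cells under 5% ribosomal protein UMIs left out of both classes, 598 and 823 trophectoderm/amnion-like and 49 and 91 epiblast/streak-like cells stayed. Then 16 members fell and 3 rose (PFKP, INSIG2 and NDRG1), and DESeq2's Wald test also left those 3 genes higher. The share of all genes called was 47.3% without the left-out cells and 31.2% with DESeq2, in place of 45.2%.

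Of 9 HIF regulators, 3 rose, 1 fell and 5 did not pass, a share of 44.4% called, near the 45.2% of all genes. EPAS1 (HIF2A), the HIF subunit of endothelium and trophoblast, had 799 and 748 CPM in trophectoderm/amnion-like cells, against 75.6 and 68.4 CPM in epiblast/streak-like cells (3.39 ± 0.18, adjusted p = 5.2e-17). HIF1A had 253 and 253 CPM, against 160.0 and 144 CPM in epiblast/streak-like cells (0.71 ± 0.16). The prolyl hydroxylase EGLN1, the main oxygen sensor of HIF, had 73.9 and 75.3 CPM, against 23.6 and 24.4 CPM (1.61 ± 0.18). ARNT2, a partner of HIF known from neurons, fell, with 3.61 and 5.25 CPM, against 16.2 and 14.2 CPM in epiblast/streak-like cells (-1.80 ± 0.35).

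Of 16 tested genes of lactate and pyruvate handling, 5 fell and 1 rose, or 37.5%, below the 45.2% of all genes. LDHB, the other subunit of lactate dehydrogenase, had 435 and 430.5 CPM in trophectoderm/amnion-like cells, against 889 and 1038 CPM in epiblast/streak-like cells (-1.19 ± 0.18), and SLC16A1 (MCT1), a lactate carrier, 82.3 and 77.0 CPM, against 258 and 232 CPM (-1.65 ± 0.15). PDHB, a subunit of pyruvate dehydrogenase, fell (-0.96 ± 0.14), whereas MPC2, a subunit of the mitochondrial pyruvate carrier, rose (0.92 ± 0.15). LDHA made up 14.7% and 16.7% of the UMIs of LDHA and LDHB in trophectoderm/amnion-like cells, against 16.1% and 17.6% in epiblast/streak-like cells, lower within each library, with no test.

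Among 9 tested other isozymes and regulators of glycolysis, PGM1, which feeds glycogen-derived glucose into the pathway (-1.78 ± 0.16), and TIGAR, which slows phosphofructokinase (-0.66 ± 0.16), fell and none rose, a share of 22.2% against 45.2% of all genes. A list of 30 other hypoxia response genes had 11 lower and 2 higher of 25 tested, or 52%, close to the 45.2% of all genes. Of these, ZNF395 (1.35 ± 0.36), PPP1R3B (-1.29 ± 0.25), the cytokine MIF (-1.16 ± 0.18) and the hormone STC2 (-1.10 ± 0.33) changed most at 10 CPM or more. The median log2 fold change of that list was -0.64, against -0.11 over all genes.

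Within the epiblast/streak-like class ADM, DDIT4 and MXI1 were lowest, and SLC2A1, PKM and PDK1 highest, in a sub-cluster that carried streak markers. These levels use all UMIs and carry no test. Sub-cluster 1 (64 cells) was highest in POU5F1 and SOX2, and sub-cluster 2 (26 cells) kept pluripotency genes with some GATA3. Sub-cluster 3 (35 cells) carried TBXT and MESP1 of the primitive streak. Sub-cluster 4 (37 cells) was highest in GATA3 and scored 6.78 on trophectoderm or amnion markers and 6.76 on pluripotent epiblast markers. Its cells were part of the class in the comparison above, and leaving them out was among the other settings. Summed enzymes were 4314 and 4581 CPM in sub-cluster 1, 3151 and 4364 in sub-cluster 2, 4416 and 4472 in sub-cluster 3 and 3799 and 3639 in sub-cluster 4. ADM was at 70.2 and 47.5 CPM in sub-cluster 1, 66.7 and 58.9 in sub-cluster 2, 1.29 and 0 in sub-cluster 3 and 36.6 and 17.1 in sub-cluster 4. The streak-marked sub-cluster had next to no ADM in either library.

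The same streak-marked sub-cluster differed in several other members. DDIT4 was at 0 and 1.29 CPM there, while the other sub-clusters lay between 8.35 and 31.3 CPM. MXI1 was at 11.6 and 6.46 CPM in sub-cluster 3, below 36.8 and 22.0 CPM in sub-cluster 1 and far below 99.3 and 119 CPM in sub-cluster 2. The transporters differed in opposite directions: SLC2A1 had 122 and 130.4 CPM and SLC2A3 111 and 149.8 CPM in sub-cluster 3, whereas sub-cluster 4 had 53.4 and 52.1 CPM of SLC2A1 and 540.3 and 486 CPM of SLC2A3. PKM reached 488 and 584 CPM in sub-cluster 3, above 269 to 366 CPM in the others, and PDK1 103 and 72.3 CPM, above 21.2 to 53.4 CPM. Each of these sums comes from 12 to 46 cells per library.

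The HOPX-high cluster combined high glycolysis enzymes with high levels of several classical HIF targets. It was singled out after its levels had been seen, so its values are given against those of trophectoderm/amnion-like cells with no test. Summed enzymes were 3733 and 4074 CPM in the HOPX-high cluster and 2370.2 and 2384 CPM in trophectoderm/amnion-like cells, and summed hypoxia genes 831 and 456 CPM, against 333 and 321 CPM. Of 31 members with at least 3 UMIs in each sum, 11 were at least 2-fold higher in both libraries and 1 was at least 2-fold lower; of all 12628 such genes, 7.36% were higher and 4.87% lower by this measure. The median log2 ratio was 0.82 over 15 enzymes, -0.33 over 14 hypoxia genes and 0.10 over all genes.

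PFKP led the enzymes, with 273 and 312 CPM in the HOPX-high cluster, against 58.9 and 57.7 CPM in trophectoderm/amnion-like cells (log2 ratios 2.36 and 2.57 within libraries 1 and 2). It made up 78.6% and 79.1% of phosphofructokinase UMIs there. LDHA (165 and 168 CPM), TPI1 (1.13 and 1.18), ENO1 (1.12 and 1.16) and PKM (1.13 and 1.11) were each more than 2-fold higher with little spread between the libraries. GAPDH was higher by less, with 1391 and 1510.3 CPM, against 1167 and 1131 CPM (0.40 and 0.56). In both libraries 14 of 15 enzymes were higher, PFKM being the exception, and so were 5739 of all 12628 genes.

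SLC2A1, the chief glucose transporter of the placenta, was at 252 and 175 CPM in the HOPX-high cluster, against 84.0 and 87.5 CPM in trophectoderm/amnion-like cells (1.73 and 1.14). SLC2A3 was at 219 and 303 CPM, against 273 and 263 CPM, which overlap. SLC2A1 therefore made up 51.1% and 39.8% of the UMIs of the pair, against 23.5% and 24.8% in trophectoderm/amnion-like cells.

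Among the hypoxia genes ADM was at 31.8 and 24.6 CPM, against 2.47 and 1.15 CPM (3.83 and 4.56), and VEGFA at 59.2 and 46.8 CPM, against 4.95 and 3.56 CPM (3.73 and 3.86). BNIP3 reached 444 and 221 CPM, against 88.7 and 90.2 CPM (2.47 and 1.44). ANKRD37, an early HIF target, was at 7.73 and 11.9 CPM, against 1.74 and 2.05 CPM, on 9 and 15 UMIs in the cluster, and EGLN3 at 5.15 and 5.56 CPM, against 2.81 and 2.54 CPM, on 6 and 7 UMIs. The list did not move as one: MXI1 was lower (10.3 and 15.1 CPM, against 35.3 and 34.1 CPM). INSIG2, P4HA2, NDRG1, PDK1, BNIP3L, KDM3A and P4HA1 also had negative ratios in both libraries, as had 4131 of all 12628 genes.

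DDIT4 depended on 1 library, with 154.5 CPM in library 1 and 11.1 CPM in library 2 of the HOPX-high cluster, against 13.6 and 15.3 CPM in trophectoderm/amnion-like cells (log2 ratios 3.65 and -0.32). The cluster itself differed between the libraries: median depth was 66631 UMIs in library 1 and 12197 in library 2. In it 5 syncytiotrophoblast markers summed to 418 and 82.9 CPM, against 7.79 and 8.88 CPM in trophectoderm/amnion-like cells. With finer clustering the cluster led by HOPX held only 2 and 23 cells. The libraries may therefore not hold the same mix of cells in the HOPX-high cluster. Of 11 immediate early and heat shock genes, which respond to handling, 4 were at least 2-fold higher in both libraries. That is 36.4%, against 35.5% of members and 7.36% of all genes. FOS was at 112 and 81.7 CPM, against 24.1 and 16.2 CPM. The part of handling in the differences of the members was not tested.

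**Figure D3:**
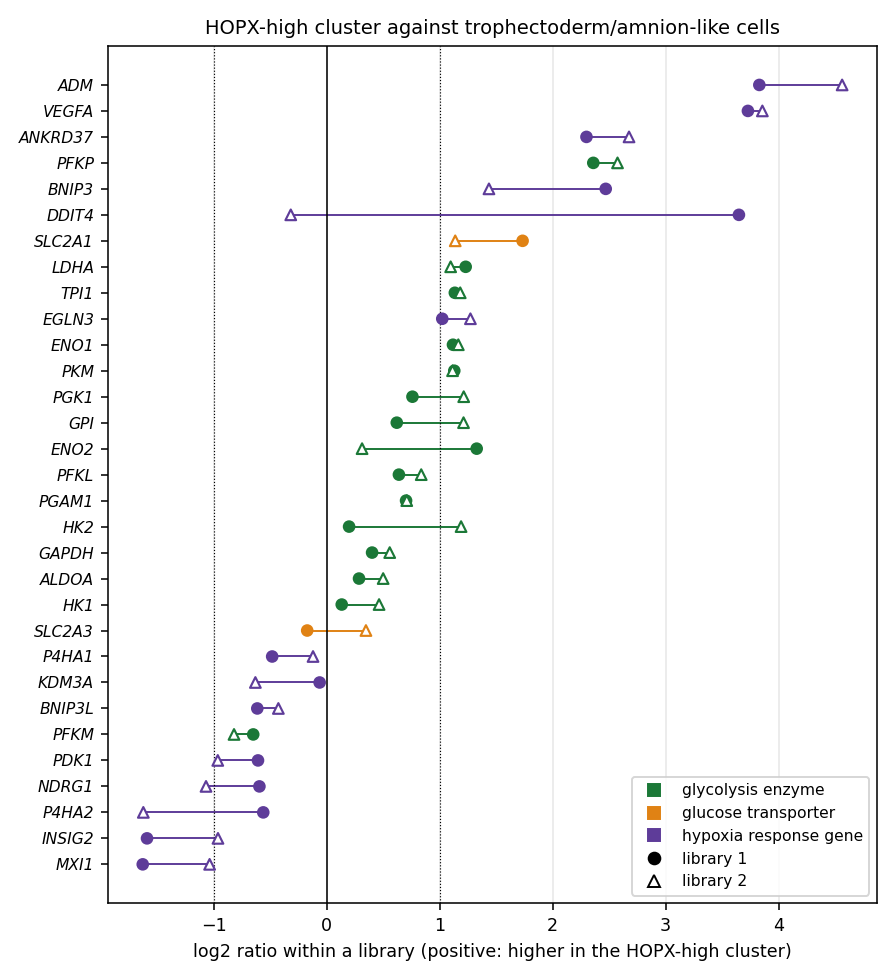
Log2 ratio of each gene in the HOPX-high cluster over trophectoderm/amnion-like cells within library 1 (filled circles) and library 2 (open triangles), joined by a line; dotted lines mark 2-fold. ADM, VEGFA, ANKRD37 and PFKP lie beyond 2 in both libraries, and DDIT4 spans from -0.32 to 3.65.

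Beyond the members, 9 of 24 other hypoxia response genes (37.5%) were at least 2-fold higher and 3 lower in both libraries in the HOPX-high cluster. Of all genes, 7.36% were higher and 4.87% lower by this measure. HMOX1, which degrades haem, was at 167 and 153 CPM, against 13.2 and 11.2 CPM in trophectoderm/amnion-like cells, and PLIN2, a lipid droplet coat, at 513 and 815 CPM, against 58.0 and 57.0 CPM. The lactate exporter SLC16A3 (MCT4) was at 27.5 and 15.9 CPM, against 9.56 and 7.91 CPM, and SLC16A1 at 169.9 and 217 CPM, against 82.3 and 77.0 CPM. PFKFB4, which activates phosphofructokinase, was at 24.9 and 18.3 CPM, against 4.88 and 4.11 CPM. EPAS1 was high in both, at 1043 and 972 CPM, against 799 and 748 CPM, and of 8 HIF regulators 0 were at least 2-fold higher and 1 was at least 2-fold lower in both libraries. That gene, HIF3A, had 3.43 and 2.38 CPM on 4 and 3 UMIs, against 10.1 and 9.84 CPM.

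**Figure D4:**
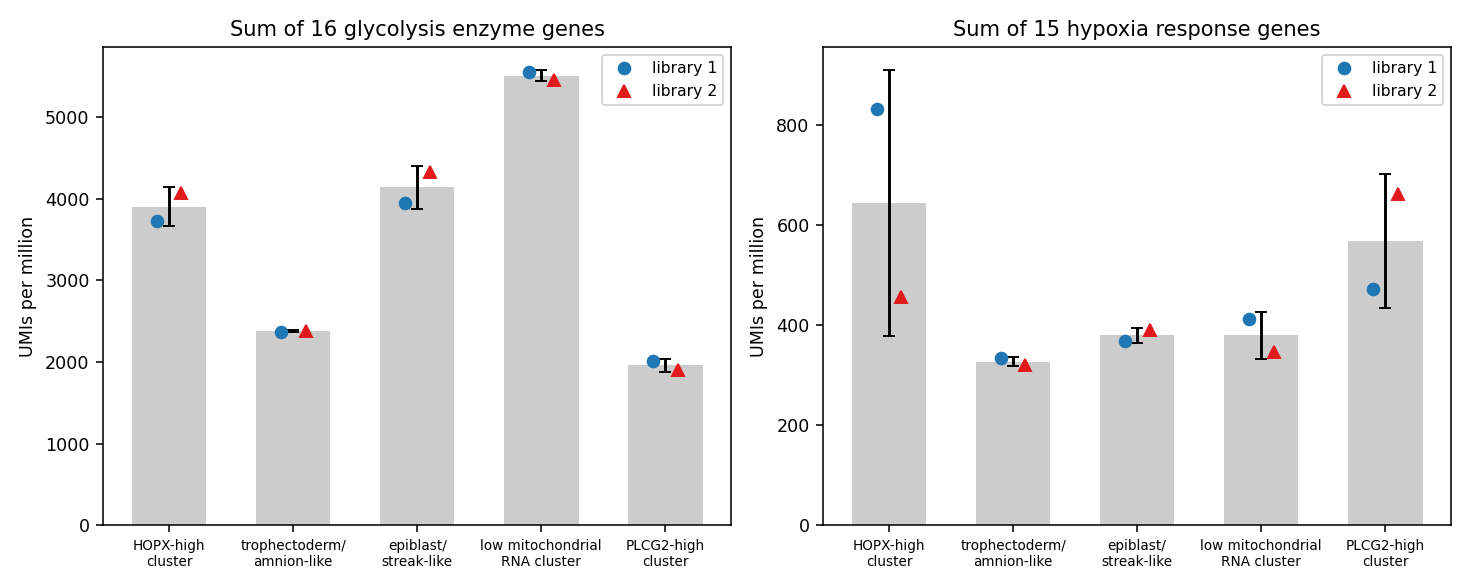
Summed level of the 16 enzyme genes (left) and of the 15 hypoxia genes (right) in 5 sets of cells, in CPM; bars are means over 2 libraries with SD, and points are the libraries. Enzymes are lowest in trophectoderm/amnion-like and PLCG2-high cells and highest in cells with almost no mitochondrial RNA, whereas the hypoxia sum of the HOPX-high cluster stands at 831 in library 1 and 456 in library 2.

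Within the trophectoderm/amnion-like class the members differed little between clusters. Each of 3 clusters was tested against the mean of the other 2 over 14762 genes with the same edgeR test. Cluster 8 was the cycling one (13 cycling genes summed to 2766 and 2476 CPM, against 413 and 448 CPM in cluster 1 and 1054 and 1067 CPM in cluster 0). There 1 member rose and 1 fell of 32 tested, while 5.72% of all genes were higher and 2.3% lower (8.02% in either direction). LDHA had 108 and 105 CPM, against 77.8 and 85.2 CPM in the other clusters (0.44 ± 0.11), and MXI1 31.9 and 23.2 CPM, against 39.0 and 40.8 CPM (-0.51 ± 0.15).

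In cluster 1, the least cycling, 5 members rose and 2 fell, while 10.1% of all genes were higher and 6.98% lower (17.1% in either direction). PFKP had 68.5 and 71.8 CPM, against 42.7 and 39.6 CPM in the other clusters (0.82 ± 0.12), and NDRG1 10.3 and 11.8 CPM, against 6.78 and 6.24 CPM (0.81 ± 0.25). LDHA fell (-0.62 ± 0.11) with 59.9 and 70.0 CPM, against 101.7 and 103 CPM, and HK2 rose (0.49 ± 0.17, adjusted p = 0.045). In cluster 0, where 3.22% of all genes were higher and 6.79% lower (10% in either direction), 2 members rose and 1 fell. There SLC2A3 rose, with 390.4 and 325 CPM, against 252 and 250.1 CPM (0.45 ± 0.10), MXI1 rose (0.51 ± 0.15) and PFKP fell (-0.80 ± 0.15). All 3 shares of members called lay near that of all genes, and DESeq2's Wald test left 0 members called in the cycling cluster.

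Summed glycolysis enzymes varied widely between single trophectoderm/amnion-like cells. With every cell thinned to 5000 UMIs, the 16 enzymes together had a median of 11 UMIs in both libraries, with the 5th and 95th percentiles at 2 and 20.8 UMIs in library 1 and nearly the same in library 2. Their variance was 2.75 and 2.61 times the mean, and that of the 15 hypoxia genes 1.17 and 1.19 times their mean. This ratio grows with the mean, which was 11.1 and 11.2 UMIs for the enzymes and 1.67 and 1.64 UMIs for the hypoxia genes, so it does not rank the sets. Across 685 cells of library 1 and 881 of library 2 the enzyme sum had Pearson coefficients of -0.02 and -0.00 with the hypoxia sum. They were 0.14 and 0.15 with BNIP3 alone and -0.10 and -0.09 with the other hypoxia genes, all weak in such sparse counts. The enzyme sum went with the share of ribosomal protein UMIs (0.66 and 0.60) and against the mitochondrial share (-0.46 and -0.35), measures taken on the same cells and affected by depth and RNA quality.

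Enzyme counts were low in 111 and 89 trophectoderm/amnion-like cells with under 5% ribosomal protein UMIs (15.7% and 9.76% of the class). That limit was set after the cells had been plotted and does not mark a gap between cells. In those cells the enzymes summed to 602 and 549 CPM, against 2496 and 2476 CPM in the other cells of the class, whereas the hypoxia genes summed to 280.1 and 281.5 CPM, against 337 and 322 CPM. GAPDH was at 132 and 108 CPM, against 1240.2 and 1175 CPM, LDHA at 13.1 and 10.1 CPM, against 79.4 and 90.6 CPM, and BNIP3 at 19.6 and 13.9 CPM, against 94.3 and 92.9 CPM.

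Other members were not lower there. HK1 had 81.6 and 71.5 CPM in the ribosome-poor cells, against 60.2 and 62.2 CPM in the other cells, KDM3A 57.9 and 56.3 CPM, against 34.4 and 29.4 CPM, and PDK1 38.3 and 38.0 CPM, against 20.5 and 23.1 CPM. Of 14 enzymes with more than 3 UMIs in each set, 10 were lower and 2 higher in both libraries. Of 11 such hypoxia genes 3 were lower and 6 higher. The same counts were not made over all genes, so no share stands beside them. In the ribosome-poor cells the nuclear RNA NEAT1 was at 1212 and 949 CPM, against 599.9 and 521 CPM. MALAT1, also nuclear, differed by a smaller factor, at 17983.5 and 18062.8 CPM, against 17486.2 and 14858.7 CPM. Median depth was 16637 and 15950 UMIs, against 39515 and 34235. The median mitochondrial share of the ribosome-poor cells was 10.3% and 11.0%, against 6.07% and 6.01%. Without the ribosome-poor cells the enzyme sum still went with the ribosomal protein share (0.42 in each library). Its coefficients with BNIP3 were then 0.05 and 0.08, in place of 0.14 and 0.15. With the other hypoxia genes they were -0.08 and -0.10.

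**Figure D5:**
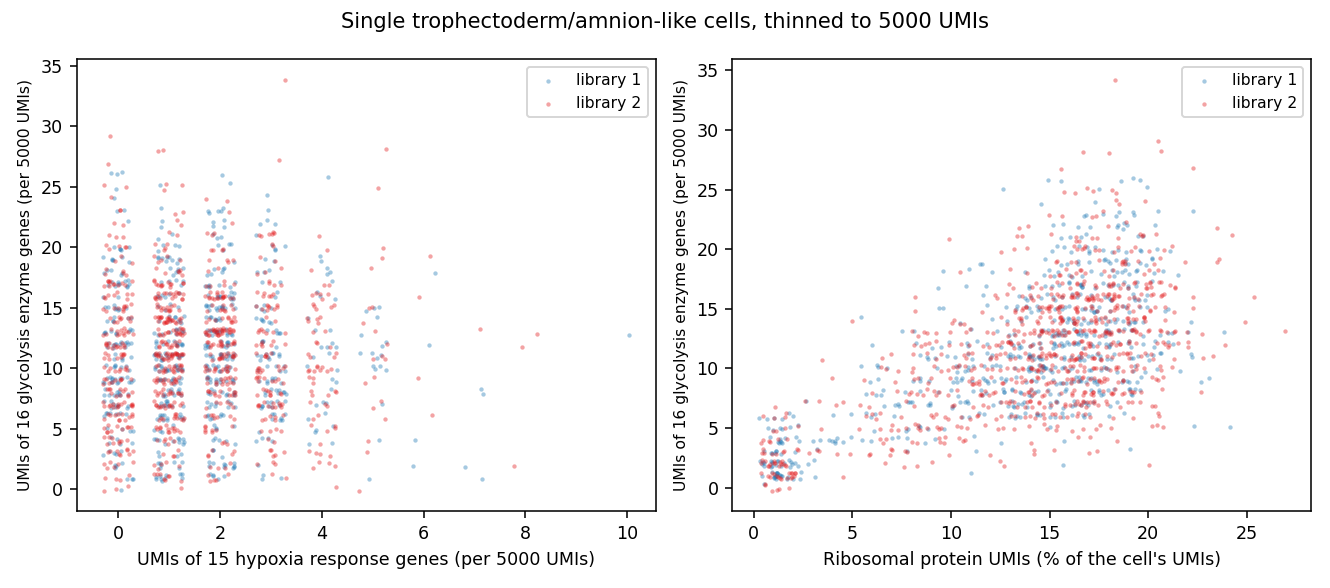
Single trophectoderm/amnion-like cells of library 1 (blue) and library 2 (red), each thinned to 5000 UMIs: UMIs of the 16 enzyme genes against UMIs of the 15 hypoxia genes (left) and against the ribosomal protein share in percent (right), with small random offsets on UMI values so that points do not hide each other. Pearson coefficients on the left are -0.02 and -0.00. On the right, cells under 5% ribosomal protein UMIs have low enzyme counts. The shares run on across that limit, and some cells above it have counts as low.

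The highest enzyme levels lay in a shallow cluster outside the named classes. It comprised 90 and 66 cells with almost no mitochondrial RNA (medians of 0.11% and 0.267% of UMIs) and had summed enzymes of 5556 and 5459 CPM, with GAPDH at 2779 and 2648 CPM and LDHA at 271 and 346 CPM. BNIP3 was at 238 and 193 CPM there, while PDK1 had 0 and 2 UMIs and NDRG1 1 and 2. Ribosomal protein genes took a median of 29.0% and 26.4% of UMIs in these cells, and the median depth was 3293 and 3198 UMIs.

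A cluster of 32 and 35 cells led by PLCG2 had low enzymes and high hypoxia genes, with summed enzymes of 2015 and 1902 CPM and summed hypoxia genes of 472 and 662 CPM. EGLN3 was at 47.8 and 55.1 CPM, NDRG1 at 41.9 and 68.9 CPM, ANKRD37 at 35.9 and 75.8 CPM and VEGFA at 23.9 and 34.5 CPM, above the other classes for EGLN3, NDRG1 and ANKRD37. These rest on 8 and 8, 7 and 10, 6 and 11, and 4 and 5 UMIs in libraries 1 and 2, at a median depth of 3976 and 2754 UMIs per cell. LDHA had 4 UMIs in library 1 and 1 in library 2. No test was made of either cluster, which were described after their levels had been seen.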

How the data were processed

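The deposited values are raw counts of UMIs per gene and barcode; the authors made them with Cell Ranger 9.0.0 on GRCh38, per the submitters' processing notes. Barcodes were kept if 1000 or more genes were detected and mitochondrial UMIs did not exceed 20%. Doublets were called with Scrublet in scanpy 1.11.5, which marked 0 and 2 cells, so few that doublets cannot be taken as removed. Each UMI was assigned at random to 1 of 2 parts. Cells were clustered (Leiden, resolution 0.5) on one part without the 33 genes, the pathway lists, mitochondrial and ribosomal protein genes, and genes were tested on the other part. Counts were summed per library and class and tested with edgeR 4.0.16 (quasi-likelihood, TMM, filterByExpr, Benjamini-Hochberg over all genes) in R 4.3.3, with the library as a block because both classes of a library share its droplets. DESeq2 1.42.0, RLE size factors, other filters, splits, resolutions and cell sets were tried. With library differences removed by the block, p-values measure only how far differences between sums vary across 2 libraries. That spread was estimated over all sums with at least 20 cells in both libraries. For the class test these included the HOPX-high cluster, the PLCG2-high cluster and the cluster with almost no mitochondrial RNA, with 4 residual degrees of freedom. Levels rest on 47291 and 55865 UMIs for GAPDH and 5 and 3 for CA9 in libraries 1 and 2, and their precision follows from these counts.

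The members, the pathway lists and the parts compared were chosen with earlier results of these data known. All members are accounted for, with full values for those past an adjusted p of 0.05 in the class comparison. In each cluster and each pathway list up to 4 genes past that threshold with the largest changes are named (lists: at 10 CPM or more), and other genes were named after their values were seen. The HOPX-high cluster, the limit of 5% ribosomal protein UMIs and the shallow clusters were taken up after the data had been seen and carry no test. The class called epiblast/streak-like was planned as epiblast-like and renamed because streak markers scored highest in it. Gene positions come from RefSeq (GRCh38.p14). The tests were tried on simulated data with known changes.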

Additional observations from a re-analysis of the deposited data

How the results depend on the processing

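Between trophectoderm/amnion-like and epiblast/streak-like cells, 12 to 16 members fell and 3 to 6 rose over 11 alternatives, and 0 members past the threshold changed direction. Only 3 rose with DESeq2 and, in an alternative added after the data had been seen, without cells under 5% ribosomal protein UMIs. Without the filter on low counts the log2 fold change of all genes had a median of 0.12 in place of -0.11, and 51.5% of calls were higher in place of 39.9%. Without the replicate block 5 members rose and 15 fell as with it, 6190 genes passed in place of 5882, and 4 members in place of 5 rose in cluster 1. Leaving out a library leaves no residual degrees of freedom, so such values carry no test; BNIP3 then ran from -0.21 to 0.31, and the levels of all members summed from 3418 to 3487 CPM.

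Within the trophectoderm/amnion-like class DESeq2 passed 866, 1459 and 754 genes for clusters 0, 1 and 8 in place of 1478, 2525 and 1184. It left 1 member higher in cluster 0, 2 higher in cluster 1, and 0 higher and 0 lower in cluster 8, where 1919 of all genes had an unadjusted p under 0.05. Without the filter 1 member was lower in cluster 1 and 3 in cluster 8, and 2 were lower in cluster 8 with RLE size factors, all UMIs or only cells of at least 5000 UMIs. In the HOPX-high cluster 2 members in place of 1 were at least 2-fold lower with RLE size factors, with doublets kept, in cells of at least 5000 UMIs or without ribosome-poor cells, and 2 to 3 with 1 library left out. At a Leiden resolution of 1.0 that cluster was not recovered with enough cells. Weighting cells equally gave 3241 CPM for all members in place of 3453 and 2889 CPM in place of 3098 for enzymes and transporters. The cause of these shifts was not tested.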
